A study of Homo sapiens with 3 samples.

Results

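The 10 genes described here encode the NF-κB transcription factor subunits and the inhibitors that bind them, and they were taken by gene name from the deposited table of 58735 genes, in which each of the 10 had 1 entry. They are the 5 subunit genes RELA, RELB, REL, NFKB1 and NFKB2, the 3 classical cytoplasmic inhibitors NFKBIA, NFKBIB and NFKBIE, and the 2 nuclear IκB proteins BCL3 and NFKBIZ. The RNA sequencing data hold 3 libraries, 1 for each group, and all carry the label HCT116, the name of a line of human colorectal carcinoma cells kept in culture. The groups were cells with an empty vector, cells overexpressing wild-type ZEB1, and cells overexpressing ZEB1 K80R, in which arginine stands in place of lysine, and all 3 carry the same treatment label, control. ZEB1 is a zinc-finger repressor of epithelial genes, and the series title names the effect of K80R on NF-κB signalling as the question. Whether the overexpressing lines were clones or pools was not given in the sources used here. With 1 library per group no condition was replicated, none was tested and no p-value is given, so every difference below is one between single libraries.

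NF-κB subunits work as dimers. In a resting cell the classical IκB proteins hold the dimers in the cytoplasm, and phosphorylation by the IκB kinase marks the inhibitor for destruction, so that RELA and p50 enter the nucleus. NFKB1 and NFKB2 are made as long precursors, p105 and p100, whose processing yields p50 and p52, and the precursors themselves act as inhibitors. RELB with p52 carries the alternative branch of the pathway. Several of these genes, NFKBIA, NFKB1, NFKB2 and RELB among them, are textbook targets of the factor they form or hold back. RNA levels of these genes do not measure how much of the factor is nuclear.

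Because such targets are bound through κB elements, the promoter windows of these genes were read for that element. RefSeq windows from 250 bases before to 50 bases after a transcription start (GRCh38.p14) were found for 8 of the 10 genes, 14 windows in all. RELB and NFKBIE had no entry. The pattern of GGG, any 5 bases and CC, searched on both strands, is so loose that 58.7% of all 35116 windows held it, and all 14 windows of these genes did. A stricter pattern contained in it, the classical κB consensus, was present in 5.91% of all windows and in 9 of the 14, which belong to 7 of the 8 genes. RELA was the gene with no match to the stricter pattern in its 2 windows. A match is a description of letters, and no window was shown here to be bound.

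The stricter matches came to 11 sites once overlapping ones were joined, 10 of them before the start. The 30 bases around 8 of them, at least 1 for each of the 7 genes, are shown so that the letters of each match can be read. Their likeness follows from the search for 1 pattern, and the other 3, of NFKB2 and NFKBIZ, are not printed. They are written 5′ to 3′ on the strand of the gene, with the match in capitals.

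NFKBIA, 81 to 72 bases before the start, chr14:35404811-35404840, minus strand: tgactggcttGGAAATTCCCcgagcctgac

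NFKB1, 49 to 40 bases before the start, chr4:102501300-102501329, plus strand: cgacgtcagtGGGAATTTCCagccaggaag

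NFKB2, 107 to 97 bases before its second start, chr10:102394461-102394490, plus strand: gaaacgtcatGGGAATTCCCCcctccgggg

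NFKB2, 78 to 69 bases before the same start, chr10:102394490-102394519, plus strand: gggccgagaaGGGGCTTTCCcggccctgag

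REL, 47 to 37 bases before the start, chr2:60881517-60881546, plus strand: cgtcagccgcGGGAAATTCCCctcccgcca

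NFKBIB, 28 to 18 bases before its second start, chr19:38899931-38899960, plus strand: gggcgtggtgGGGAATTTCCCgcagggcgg

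NFKBIZ, 223 to 214 bases before its first start, chr3:101827757-101827786, plus strand: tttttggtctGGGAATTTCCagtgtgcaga

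BCL3, from base 3 to base 12 after the start, chr19:44748700-44748729, plus strand: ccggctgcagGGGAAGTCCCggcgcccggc

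The element of NFKBIA lies in a window whose start, base 35404749 of chromosome 14, is also the 5′ end of the gene in the deposited table. The 250 bases before that start are shown because NFKBIA had the widest range of log2(FPKM + 1) over the 3 libraries.

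NFKBIA, chr14:35404750-35404999, minus strand: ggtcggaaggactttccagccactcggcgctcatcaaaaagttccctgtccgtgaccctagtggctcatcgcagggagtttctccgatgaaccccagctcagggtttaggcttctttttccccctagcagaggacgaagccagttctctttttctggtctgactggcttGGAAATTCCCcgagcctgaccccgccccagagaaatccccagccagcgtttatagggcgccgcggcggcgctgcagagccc

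**Figure D1:**
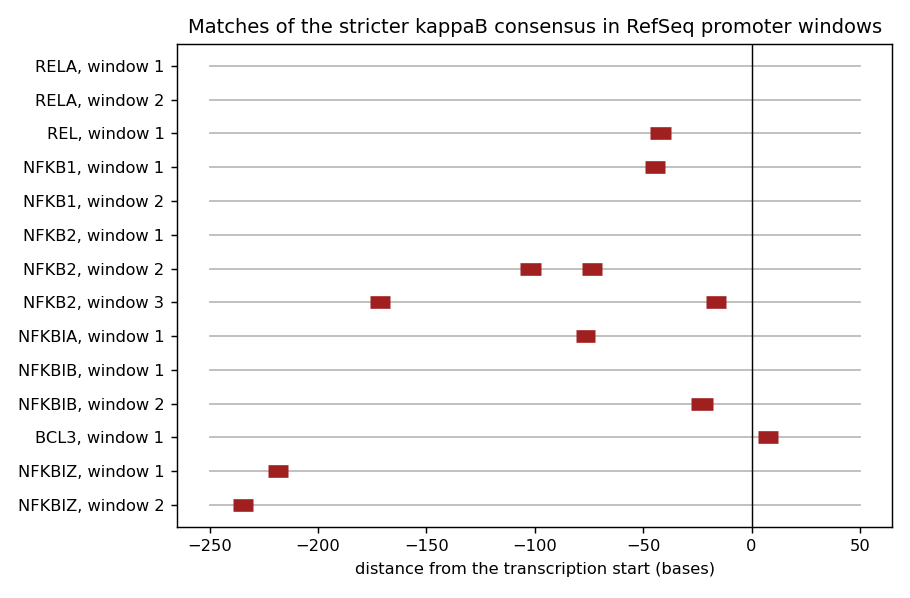
Position of matches to the classical κB consensus (red boxes) in the 14 RefSeq promoter windows of 8 genes, from 250 bases before to 50 bases after each start (x axis, bases). NFKB2 had 4 joined sites in 2 of its 3 windows, NFKBIZ had 1 in each of its 2 windows, and RELA had none.

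The levels below are FPKM, fragment numbers that the authors scaled to gene length and library size. In each library the products of FPKM and gene length were all multiples of 1 value, so the reads behind each level could be counted, and they summed to between 13479517 and 14764535 per library. Intervals in brackets are exact 95% intervals from these reads. They cover counting error only, since copies of a molecule are not independent, and they say nothing about how much cultures of a group would differ. ZEB1 stood at 5.66 FPKM in empty vector, 9.83 in wild-type ZEB1 and 10.3 in ZEB1 K80R, and a value per gene does not tell the introduced from the endogenous gene, nor the K80R form from the wild type. Of 19 colon epithelial markers, 10, among them EPCAM, CDH1 and CDX2, had 0 reads in all 3 libraries and only the keratins KRT8 and KRT18 reached a mean of 1 FPKM, so the colon epithelial label did not match its defining markers. Of 12 mesenchymal markers 9 reached that mean. At a ratio of at least 1.5 in FPKM + 1, 5 of the 9 were higher in wild type than in empty vector, VIM, FN1, SNAI2, TWIST1 and PDGFRB, and 0 were lower. Against empty vector, K80R had 6 higher and 1, COL1A1, lower. Against wild type, K80R had 2 lower, SNAI2 and TWIST1, and 0 higher. Over all genes compared, in that order, 14.2%, 12.6% and 4.42% were higher and 11.1%, 13.0% and 5.18% lower. Rescaled to a common sum of FPKM, 10 of the markers were compared. Against empty vector, wild type then had 3 higher and 2 lower, beside 11.9% and 37.7% of all genes. K80R had 2 higher and 2 lower, beside 12.6% and 35.9%. At a sum without mitochondrial genes, each had 6 higher and 2 lower. As deposited, all 12 mesenchymal markers summed to 656 FPKM in the empty vector library, 1139 with wild-type ZEB1 and 1039 with K80R. The part of these markers in the results below was not tested. The 9 leukocyte markers summed to between 0.271 and 0.336 FPKM per library, with PTPRC and CD3E at 0 throughout, and the 5 endothelial markers to between 0.811 and 1.21.

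The empty vector library stood apart in 2 ways. It held 350 genes with exactly 1 read, against 2705 in the wild-type and 2902 in the K80R library, and 1.29% of its reads were mitochondrial, against 7.77% and 9.75%. Whether either bears on the 10 genes was not tested. Rescaling to a common sum of FPKM (TPM) left 17153 genes with a mean of at least 1 on that scale. Their median log2 difference was −0.39 for wild-type ZEB1 and −0.36 for ZEB1 K80R, each against empty vector, and 0.02 for K80R against wild type. Apart from the cutoff on mean FPKM, which is taken over all 3 libraries, the comparison of K80R with wild type as deposited uses no empty vector value. Neither the within-library ratios of the 3 libraries nor their order of levels depend on scaling.

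Of the 10 genes, 9 had their highest deposited FPKM in the wild-type ZEB1 library, and 5 had their lowest in the ZEB1 K80R library and 4 in the empty vector library. At a common sum 7 were highest in wild type and 3, NFKBIB, NFKBIE and REL, in empty vector, and 7 were lowest in K80R and 2, RELA and NFKBIA, in empty vector. No shares of all genes with the same highest or lowest library are given here, so these counts have no background. REL was the exception to the first count on the deposited scale and was at or below 0.370 FPKM in every library. The other 9 genes stood at 3.29 FPKM or more in each library, so none passed the filter on mean FPKM of at least 1 through a single library.

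RELA encodes p65, the subunit that carries the main activation domain of the canonical dimer (ENSG00000173039; chromosome 11, 65653596 to 65663094, minus strand). It stood at 10.9 FPKM in empty vector, 23.2 in wild-type ZEB1 and 16.3 in ZEB1 K80R, from 945, 1749 and 1186 reads. Its wild-type value was 2.13 (1.97 to 2.31) times that of empty vector, its K80R value 1.497 (1.37 to 1.63) times that of empty vector and 0.702 (0.652 to 0.756) times that of wild type. The K80R library thus lay between empty vector and wild type for RELA. At a common sum the ratio of wild type to empty vector was 1.55 and that of K80R to empty vector 1.10.

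RELB, the activating partner of p52 in the alternative branch (ENSG00000104856; chromosome 19, 45001430 to 45038198, plus strand), stood at 5.99 FPKM in empty vector, 18.5 in wild-type ZEB1 and 4.16 in K80R. The wild-type level was 3.09 (2.69 to 3.55) times that of empty vector, and 2.25 times at a common sum. In K80R the level was 4.45-fold (3.77 to 5.29) lower than in wild type and 0.693 (0.570 to 0.841) times that of empty vector. RELB therefore differed from RELA in its order, with K80R the lowest library. Of the 12605 genes with a mean of at least 1 FPKM, 37, RELB included, had a difference of log2(FPKM + 1) as low as that of RELB between K80R and wild type.

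NFKB1, the gene of p105 and p50 (ENSG00000109320; chromosome 4, 102501329 to 102617302, plus strand), was at 10.4 FPKM in empty vector, 15.4 in wild-type ZEB1 and 8.51 in K80R. Its wild-type level was 1.48 (1.36 to 1.603) times that of empty vector, and 1.07 times at a common sum. NFKB2, the gene of p100 and p52 (ENSG00000077150; chromosome 10, 102394110 to 102402529, plus strand), had 19.6, 55.0 and 18.2 FPKM in the same order, from 1393, 3403 and 1088 reads. Wild type was 2.81 (2.64 to 3.0) times empty vector for NFKB2, and 2.05 times at a common sum. The K80R library was 3.02-fold (2.82 to 3.24) lower than wild type and lay within counting error of empty vector, at a ratio of 0.931 (0.860 to 1.01), which was 0.687 at a common sum.

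REL encodes c-Rel, the subunit best known from lymphocytes (ENSG00000162924; chromosome 2, 60881521 to 60931610, plus strand). It stood at 0.368, 0.303 and 0.370 FPKM in empty vector, wild type and K80R, from 77, 55 and 65 reads, and none of its 3 ratios had an interval that left out 1. The level is uncertain, because 5702 of its 13170 exonic bases, 43.3%, are shared in GENCODE release 29 with AC010733.2, a noncoding gene on the same strand that had 0 reads in all 3 libraries. How reads on shared bases were assigned was not given in the sources used here. Spread over the 7468 unshared bases alone, the same reads would be worth 0.649, 0.534 and 0.653 FPKM. REL stayed the lowest of the 10 genes either way.

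**Figure D2:**
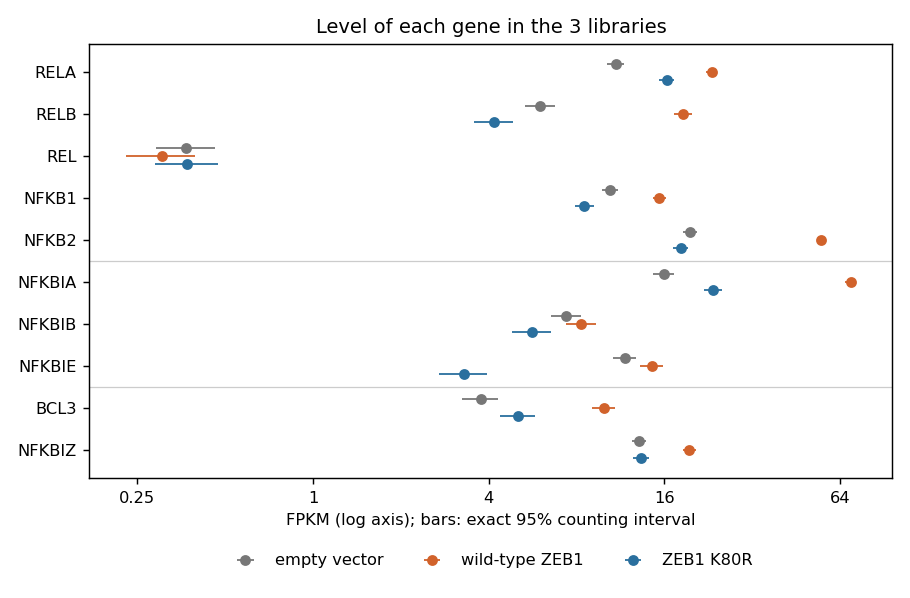
FPKM (log axis) of the 10 genes in the empty vector (grey), wild-type ZEB1 (orange) and ZEB1 K80R (blue) libraries, with exact 95% counting intervals, and grey lines between subunits, classical inhibitors and nuclear IκB proteins. On this deposited scale the wild-type library is rightmost for 9 of the 10 genes, and NFKBIE in K80R sits apart at 3.29. The share of all genes that were highest in wild type is not given here.

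NFKBIA encodes IκBα, the inhibitor that is destroyed and made anew within a single round of signalling (ENSG00000100906; chromosome 14, 35401511 to 35404749, minus strand). It was at 15.9 FPKM in empty vector, 69.6 in wild-type ZEB1 and 23.4 in K80R, from 599, 2279 and 741 reads. The wild-type level was 4.38 (4.0 to 4.80) times that of empty vector, and 3.19 times at a common sum. On the deposited scale 121 of the 12605 genes, NFKBIA included, had a difference as high. K80R was 2.97-fold (2.73 to 3.23) lower than wild type and 1.48 (1.32 to 1.65) times empty vector, or 1.09 at a common sum.

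NFKBIE encodes IκBε, a slower-acting inhibitor of the same class (ENSG00000146232; chromosome 6, 44258166 to 44265788, minus strand). Its levels were 11.7 FPKM in empty vector, 14.5 in wild-type ZEB1 and 3.29 in K80R, from 479, 515 and 113 reads. Wild type and empty vector lay close together at a ratio of 1.24 (1.09 to 1.41), which was 0.901 at a common sum. K80R was 3.55-fold (2.89 to 4.403) lower than empty vector and 4.401-fold (3.58 to 5.44) lower than wild type. On the deposited scale NFKBIE was thus the gene in which K80R stood below both other libraries by more than 1.5-fold in FPKM + 1, while NFKBIA in the same library lay above empty vector. At a common sum RELB and NFKB1 also stood below both other libraries by more than 1.5-fold in K80R.

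NFKBIB, the gene of IκBβ (ENSG00000104825; chromosome 19, 38899700 to 38908893, plus strand), had the smallest range of the 9 genes with a mean above 1 FPKM on the deposited scale, 1.48-fold, and a range of 1.78-fold at a common sum, where that of NFKBIZ was 1.45-fold. It stood at 7.37, 8.30 and 5.62 FPKM in empty vector, wild type and K80R. The ratio of wild type to empty vector, 1.13 (0.947 to 1.34), did not leave counting error and was 0.820 at a common sum, and K80R was 0.677 (0.556 to 0.823) times wild type. Of its exonic bases 40 are shared with SIRT2 on the other strand.

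BCL3, a nuclear IκB protein that joins p50 or p52 dimers on DNA (ENSG00000069399; chromosome 19, 44747705 to 44760044, plus strand), was at 3.75, 9.90 and 5.02 FPKM in empty vector, wild type and K80R. Wild type was 2.64 (2.23 to 3.15) times empty vector, or 1.92 times at a common sum, and K80R 0.507 (0.429 to 0.598) times wild type. Against empty vector, K80R was at a ratio of 1.34 (1.10 to 1.64), or 0.988 at a common sum, so the direction of that pair turned with the scale. NFKBIZ encodes IκBζ, a nuclear co-regulator of secondary response genes such as IL6 (ENSG00000144802; chromosome 3, 101827991 to 101861022, plus strand). Its 13.1 and 13.3 FPKM in empty vector and K80R differed by less than counting error, at a ratio of 1.02 (0.937 to 1.11) that was 0.751 at a common sum. Its 19.5 in wild type was 1.49 (1.38 to 1.61) times the empty vector level, or 1.09 times at a common sum.

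**Figure D3:**
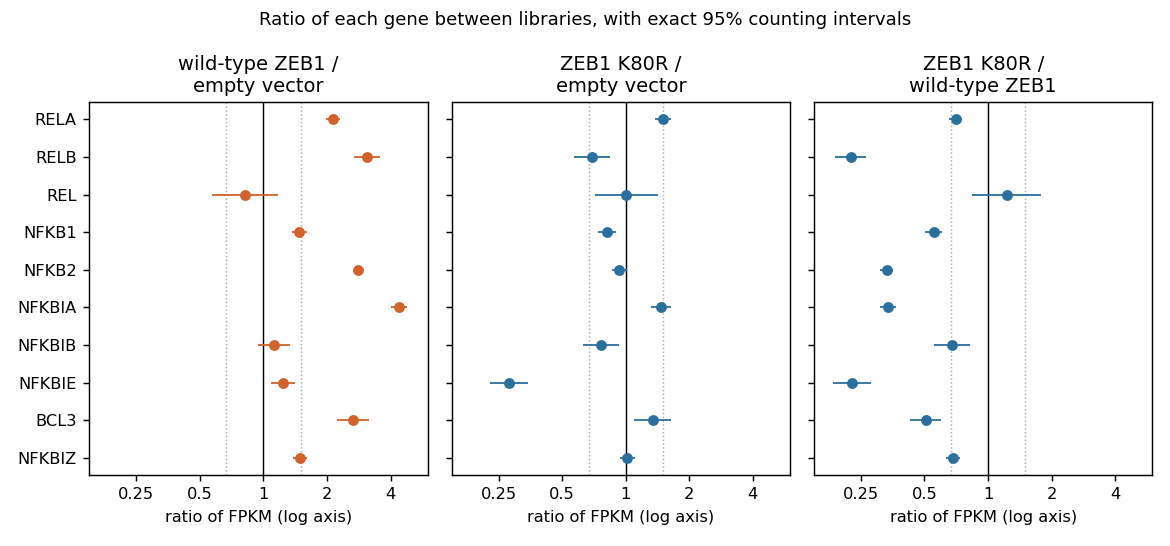
Ratio of FPKM between each pair of libraries (log axis) for the 10 genes, with exact 95% counting intervals, a solid line at 1 and dotted lines at 1.5-fold in either direction. NFKBIA is rightmost for wild type over empty vector at 4.38, and RELB and NFKBIE are leftmost for K80R over wild type at 0.224 and 0.227.

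Counted at a ratio of at least 1.5 in FPKM + 1, 5 of the 9 genes compared were higher in wild-type ZEB1 than in empty vector, namely RELA, RELB, NFKB2, NFKBIA and BCL3, and 0 were lower. Over all 12605 genes, 14.2% were higher and 11.1% lower by the same measure. The 4 within range were NFKBIZ and NFKB1, just short of the threshold at 1.46 and 1.43, and NFKBIE and NFKBIB at 1.22 and 1.11. The median difference of log2(FPKM + 1) was 1.03 over the 9 genes and 0.01 over all genes compared. At a common sum the cutoff of 1 was applied to the rescaled values, so REL was included and 17153 genes were compared. There 5 of the 10 members were higher and 0 lower, beside 11.9% and 37.7% of those genes. Genes higher made up 24.0% of all genes past the fold there and 56.1% as deposited, over these different gene sets.

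Between K80R and wild type, 6 of the 9 genes were lower in K80R, namely RELB, NFKB1, NFKB2, NFKBIA, NFKBIE and BCL3, and 0 were higher. Among all genes 5.18% were lower and 4.42% higher. RELA, NFKBIB and NFKBIZ lay within range, although their counting intervals also lay wholly below 1, as did those of all 9 genes. The share of all genes with such an interval is not given here, so this has no background. The median difference was −0.86 over the 9 genes and −0.02 over all. The count of lower members was 6 under each of the 3 other scalings and 4 at a threshold of 2-fold. Over all genes past the fold, those higher made up 46.0% as deposited, 56.8% at a common sum and 70.7% at a sum without mitochondrial genes. These shares are not over the same genes, because the cutoff of 1 and the added 1 were applied to the rescaled values. The genes compared numbered 12605, 17153 and 18336, and the members 9, 10 and 10. At those sums, in that order, 8.57% and 7.51% of all genes were lower.

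K80R against empty vector gave 1 lower gene of 9, NFKBIE, and 0 higher, against 13.0% lower and 12.6% higher among all genes, so the share past the fold was near the background. The median difference was −0.10, and 0.00 over all genes. Counting intervals were above 1 for RELA, NFKBIA and BCL3 and below 1 for RELB, NFKB1, NFKBIB and NFKBIE, again with no share over all genes to set beside them. At a common sum 4 genes were lower, RELB, NFKB1, NFKBIB and NFKBIE, and at a sum without mitochondrial genes 2 were higher, RELA and NFKBIA, with the median of the family at 0.02. Those counts are of 10 genes, REL included, and all genes past the fold in the same direction were 35.9% and 26.1%, so both lay near the background. Genes higher made up 49.3% of all genes past the fold as deposited, 26.0% at a common sum and 63.1% without mitochondrial genes. These shares are over different gene sets, of 12605, 17153 and 18336 genes compared. The comparisons share libraries, so their counts are not independent of each other.

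Ratios between genes of a library are free of its scaling, and they show which parts of the family kept step. NFKBIA was at 1.46 (1.32 to 1.62) times the FPKM of RELA in empty vector, 3.0 (2.82 to 3.195) in wild-type ZEB1 and 1.44 (1.31 to 1.58) in K80R. The empty vector and K80R libraries overlapped in this balance of inhibitor to subunit, with wild type above both. NFKBIE to RELA went another way, at 1.07 (0.959 to 1.199), 0.623 (0.564 to 0.688) and 0.202 (0.165 to 0.245), so that each library was set apart. NFKBIB to RELA was 0.677 in empty vector, 0.358 in wild type and 0.345 in K80R, where the intervals of the latter 2 overlapped.

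The make-up of the classical inhibitors differed between the libraries. NFKBIA held 45.5% of their summed FPKM in empty vector, 75.4% in wild-type ZEB1 and 72.5% in K80R, while NFKBIE held 33.4%, 15.7% and 10.2%. NFKBIB held 21.1%, 8.98% and 17.4%, so for this gene wild type was the lowest. The summed FPKM of the 3 inhibitors was 34.9, 92.4 and 32.3, and that of the 5 subunits 47.2, 112.4 and 47.5. On this deposited scale both sums were thus highest in wild type. Their ratio, which is free of scaling, moved little, at 0.740, 0.822 and 0.680.

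Within the subunits, RELB to RELA was 0.551 (0.481 to 0.629) in empty vector, 0.798 (0.732 to 0.869) in wild-type ZEB1 and 0.255 (0.216 to 0.300) in K80R. The K80R library thus held less RELB for its RELA than either other library. NFKB1 to RELA stood at 0.957, 0.663 and 0.522 in the same order, and NFKB2 to NFKB1 at 1.88, 3.58 and 2.14. RELA made up 23.1% of subunit FPKM in empty vector, 20.6% in wild type and 34.3% in K80R, and NFKB2 was the most abundant subunit RNA in all 3 libraries, at 41.4%, 48.9% and 38.3%.

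**Figure D4:**
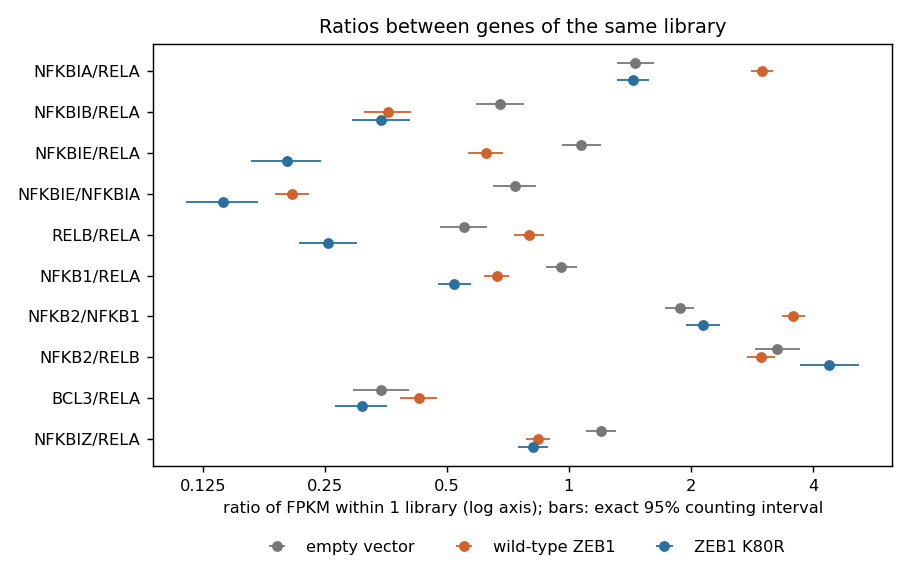
Ratio of FPKM between 10 pairs of genes within a library (log axis), with exact 95% counting intervals, for empty vector (grey), wild-type ZEB1 (orange) and ZEB1 K80R (blue). NFKBIA/RELA is alike in empty vector and K80R and higher in wild type, whereas NFKBIE/RELA and RELB/RELA are lowest in K80R.

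The order of levels, which FPKM allows between genes since it is per length, changed at the top and in the middle. NFKB2 led NFKBIA in empty vector, and NFKBIA led NFKB2 in wild type and K80R. In empty vector NFKBIZ, NFKBIE, RELA and NFKB1 followed, and each overlapped the next in its counting interval. RELA came after NFKB2 in both overexpression libraries, and the intervals of this pair overlapped in K80R and not in wild type. NFKBIE took the fourth place in empty vector and the ninth in K80R, where NFKBIB, BCL3, RELB and NFKBIE formed a chain of overlapping neighbours.

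Most kinases and adaptors upstream of NF-κB, like most of all genes, lay within 1.5-fold in each comparison of the deposited values. Of 20 such genes 18 had a mean of at least 1 FPKM. Of the 18, 14 lay within range for wild type and 15 for K80R, each against empty vector, and 16 for K80R against wild type. Of all 12605 genes compared, 9419, 9373 and 11395 did so in that order, so the share within range lay near the background. Against empty vector, wild-type ZEB1 had 1 higher, BIRC3, an inhibitor of apoptosis protein that is itself a target, and 3 lower, with a median of −0.05, beside 14.2% higher and 11.1% lower among all genes. BIRC3, at 4.56 against 0.578 FPKM, passed the filter only through its wild-type value, so its calls against both other libraries were fixed by the filter. The lower ones were the IκB kinase subunits CHUK, at 6.08 against 9.86 FPKM, and IKBKG, at 2.81 against 5.37, and the TNF receptor adaptor TRADD, at 7.09 against 11.6. IKBKG has a near-identical pseudogene copy, so its value is uncertain. Between K80R and wild type 2 were lower, BIRC3 at 0.429 against 4.56 and its relative BIRC2 at 11.2 against 21.6, and 0 were higher. The shares over all genes were 5.18% lower and 4.42% higher. The median of the 18 genes, −0.05, turned to 0.09 at a sum without mitochondrial genes. In K80R against empty vector 3 were lower, IKBKG, TRAF2 and TRADD, and 0 higher, beside 13.0% lower among all genes, and the median was −0.17. On the scale of a common sum, 7 and 9 of the 18 were lower than in empty vector, in wild type and K80R, beside 37.7% and 35.9% of all genes, and their medians were −0.49 and −0.60 beside −0.39 and −0.36 over all genes. The adaptor MYD88 and the interleukin-1 receptor gene IL1R1 stayed at or below 0.174 FPKM throughout.

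Feedback and target genes of NF-κB were described in the same way. Of 24 listed genes 21 were compared. In wild-type ZEB1 20 were higher than in empty vector and 0 lower, with a median of 1.91, beside 14.2% and 11.1% of all genes. CXCL8, the interleukin-8 gene, stood at 179 against 9.05 FPKM, ICAM1, a leukocyte adhesion receptor, at 12.3 against 0.153, and the gelatinase gene MMP9 at 29.7 against 2.13. Between K80R and wild type 19 were lower and 0 higher, with a median of −1.96, beside 5.18% and 4.42% of all genes. CSF2, a colony-stimulating factor, stood at 0.382 FPKM in K80R against 14.1 in wild type. Of the 21 genes 6, ICAM1, TNF, BIRC3, CCL20, IL6 and PTGS2, had a mean below 1 FPKM over the other 2 libraries and passed the filter only through their wild-type value, which tilts these counts. In K80R against empty vector 4 were higher and 2 lower, beside 12.6% and 13.0% of all genes. The median of the list, 0.21, turned to −0.13 at a common sum. There 3 of 22 were higher and 8 lower, beside 12.6% and 35.9% of all genes, so the share lower lay near the background. The list was chosen with earlier results of these libraries known and is no independent evidence of its direction. CXCL1 and CXCL2, well-known targets, had 0 reads in all 3 libraries.

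**Figure D5:**
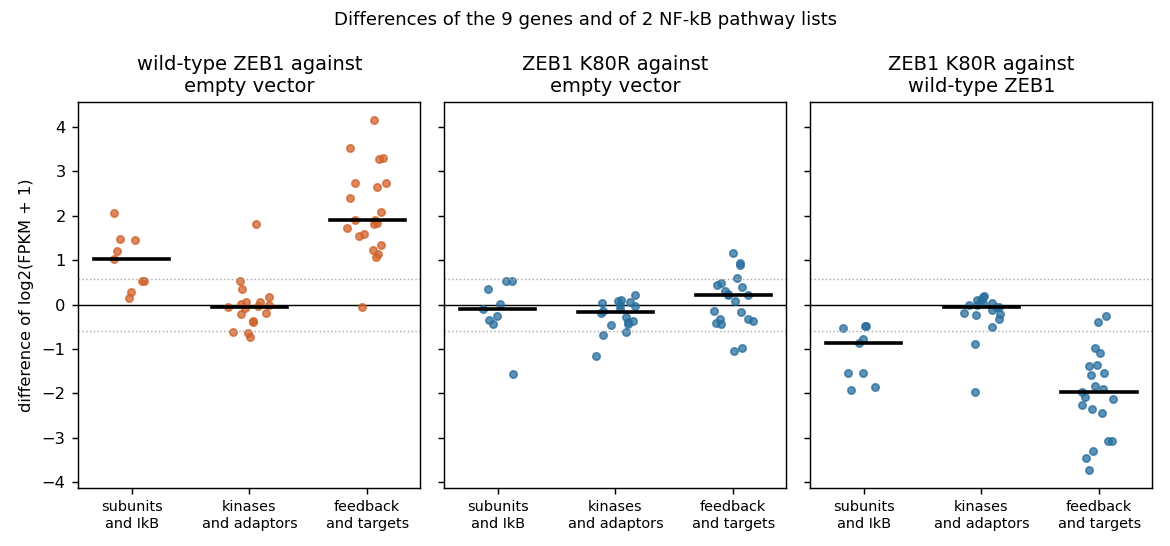
Difference of log2(FPKM + 1) for the 9 compared genes of the family, 18 kinases and adaptors and 21 feedback and target genes, 1 panel per comparison, with medians as black bars and dotted lines at 1.5-fold. The medians of the family, 1.03 and −0.86, lie between those of the other 2 lists for wild type against empty vector and for K80R against wild type. This order is no independent evidence, because the lists were chosen with earlier results known. Of the 21 target genes, 6 passed the filter only through their wild-type value, and BIRC3 is in both of the other lists.

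The other IκB family genes were sparse or moderate. NFKBID, which encodes the nuclear IκBNS, was at 0.827, 0.952 and 0.376 FPKM in empty vector, wild type and K80R, from 42, 42 and 16 reads. NFKBIL1, an IκB-like gene, was at 7.18, 9.13 and 4.35. K80R was thus the lowest library for both, as it was for RELB, NFKB1, NFKB2, NFKBIB and NFKBIE on the deposited scale. NFKBID did not reach the cutoff on mean FPKM and was not compared.

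Genes with the most similar pattern were sought for the 3 members with the widest range, NFKBIA, RELB and NFKBIE, among 6535 other protein-coding genes with a mean of at least 5 FPKM. Likeness was the Euclidean distance over the 2 differences from empty vector, which rests on 3 libraries only. Nearest to NFKBIA was the cytokine gene IL1B, at 30.3, 110.9 and 42.5 FPKM in empty vector, wild type and K80R, at a distance of 0.23. SEMA4B, a semaphorin gene, and ZC3H12A, which encodes an RNase that cuts cytokine mRNAs, followed at 0.29 and 0.32. RELB was nearest to TNFAIP2, at 7.71, 27.7 and 5.54 FPKM and a distance of 0.24, then to the kinase gene IRAK2 and to NFKB2 itself, at 0.29 and 0.34. NFKBIE had no neighbour as close. PIM3, a kinase gene at 55.3, 46.4 and 18.2 FPKM, ANKRD37 and DDIT4 were at 0.53, 0.56 and 0.60.

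Set beside the promoter windows above, genes with a match to the κB consensus were found at high and at low ratios. On the deposited scale NFKBIA, NFKB2 and BCL3, with a match, were at least 2.64 times as high in wild type as in empty vector. NFKB1 and NFKBIZ, with a match, were at 1.48 and 1.49. NFKBIB and REL also held a match, at ratios of 1.13 and 0.823, and RELA held none at 2.13. At a common sum the ratios were 3.19 for NFKBIA, 2.05 for NFKB2, 1.92 for BCL3, 1.07 for NFKB1 and 1.09 for NFKBIZ. They were 0.820 for NFKBIB, 0.599 for REL and 1.55 for RELA. The windows cover 300 bases each, and elements farther away were not looked for.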

How the data were processed

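RNA sequencing libraries of cells labelled HCT116 were grouped by the genotype label, 1 for each of the 3 groups. Per the labels' protocols, libraries were made from total RNA with a SMARTER mRNA kit. Per the submitters' processing notes, hg38, DESeq2 1.20.0, featureCounts 1.5.0-p3 and CASAVA were used, with no roles stated. Aligner, strand setting and annotation: not given in the sources used here. FPKM values are as the authors deposited them. The gene lengths in the table equal the joined exons of GENCODE release 29 for all 10 genes.

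Reads were recovered as FPKM times gene length divided by a library's step, whole within 0.05 reads for 100% of genes above 0, and served for exact 95% (Clopper-Pearson and Poisson) counting intervals only. The procedure was tested on simulated data. Differences are of log2(FPKM + 1), which understates those of low genes; ratios are of FPKM with no pseudocount. The comparison took genes whose mean FPKM reached 1, and ratios of at least 1.5 in FPKM + 1 counted. Alternatives were a pseudocount of 0.1, common sums with and without mitochondrial genes, median-ratio scaling, a 2-fold threshold, and other filters. At the common sums the cutoff of 1 and the pseudocount were applied to the rescaled values, so more genes were compared. Python 3.11.15, pandas 2.3.3 and SciPy 1.17.1 were used. All 10 genes, ZEB1, the 3 genes nearest to each of the 3 members with the widest range, and up to 3 genes per list with the largest difference were to be named; other list genes named were chosen after their values were seen. The members and lists were chosen with earlier results of these data known. SOD2 had 2 entries, of which the higher was used.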

Additional observations from a re-analysis of the deposited data

How the results depend on the processing

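No paired analysis was possible because each group had 1 library. The counts of members past 1.5-fold moved by more than 1.5 times under only 2 settings, both in K80R against empty vector. At a common sum (TPM) 4 members were lower instead of 1, and at a sum without mitochondrial genes 2 were higher instead of 0. Under the pseudocount of 0.1, median-ratio scaling, the 2-fold threshold, no filter, a mean FPKM of at least 5, and a filter on the 2 libraries compared, added after the data were seen, the 6 counts stayed within 1.5 times, and no called difference changed sign. The 60 single values were the log2 difference and the ratio of FPKM of each gene in each comparison, so 1 shift can count in both forms. Of these values, 36 left their counting interval at the common sum and 9 at the sum without mitochondrial genes. Depth limits REL most, with 55 to 77 reads.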
